A study of Mus musculus with 13 samples.

Results

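The small RNAs described here map to mouse LTR retrotransposons listed under names that do not begin with IAP, ERVB, ETn or RLTR. They were chosen by name: every retrotransposon listed in the deposited summary tables was kept except LINE and SINE sequences, MMERVK10C and names that begin with IAP, RLTR, ERVB or ETn. This left 61 of the 262 listed retrotransposons, or 61 of 237 with LTRs. By name, 9 belong to the ERVL and MaLR group (MERVL with its MT2 LTRs, and the MT and ORR1A elements), 7 are internal sequences and 12 are LTRs of class I (ERV1) elements, 6 are internal sequences and 9 are LTRs of class II (ERVK) elements, 14 are MLTR sequences and 4 were not grouped. A table entry is a consensus sequence that stands for many copies, so it has no genome position.

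LTR retrotransposons resemble proviruses. An internal sequence that encodes, or once encoded, the proteins for copying lies between a pair of long terminal repeats (LTRs) that hold the promoter and the polyadenylation signal. MERVL is a class III element transcribed from MT2 LTRs in the early embryo, and the MaLR elements (MT, ORR1) are nonautonomous relatives whose LTRs drive many transcripts in oocytes. In male germ cells, PIWI-interacting RNAs (piRNAs) guide PIWI proteins to retrotransposon transcripts and to the loci that make them. In the ping-pong cycle a piRNA directs the cutting of a transcript of the opposite strand and the cut end becomes the 5′ end of a new piRNA, so that the partners are complementary over their first 10 nt. The product of Pld6, on the outer membrane of mitochondria, is needed to make primary piRNAs.

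Germ cells of C57BL6/J mice aged 3-4 weeks were stained with Hoechst-33342, sorted by FACS and used for small RNA sequencing. The set without technical replicates held 1 sample of spermatogonia (SG), 2 of leptotene/zygotene spermatocytes (L/Z 1 and L/Z 2), 1 of spermatocytes labelled pachytene/diptotene (P/D) and 1 of round spermatids (RS). The set with technical replicates held 2 samples each of spermatogonia (SG-T 1 and 2) and leptotene/zygotene spermatocytes (L/Z-T 1 and 2), each sequenced in a 50-bp and a 100-bp run. No label gave a genotype, but the headers of the summary tables of this second set name a Pld6 knockout, so set, depth, run and genotype cannot be told apart in any comparison between the sets. Pld6 knockout germ cells do not pass into pachytene, which limits them to the stages sampled. Nothing in the labels says that replicates came from separate animals, so p-values measure only the spread between these samples. The libraries held no mRNA, and the stages could not be checked against marker genes.

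The SG, P/D and RS samples had 12541019 to 13290381 reads each, L/Z 1 had 29956080 and L/Z 2 had 17458652. In the second set the totals were 1810805 (SG-T 2) to 10764026 reads (L/Z-T 2). Levels are given for reads of 24-33 nt in RPM, in which reads are scaled to a common library size. The 61 elements drew 17914 to 113523 such reads per sample in the first set, but only 425, 70, 365 and 405 reads in SG-T 1, SG-T 2, L/Z-T 1 and L/Z-T 2. Averaged over the 9 samples, 18 of the 61 reached 10 RPM, and 19 stayed under 1 RPM in every sample. The SG, P/D and RS samples have no replicate, so stage differences that involve them were not tested. All intervals are 95% Wilson intervals, which cover counting error only, and the PCR reads carried no molecular identifiers.

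Single reads are shown for the junction of an MT2 LTR with MERVL, where both strands gave piRNAs and the study lists a stretch of 388 bases, amplified after bisulfite treatment (converted bases were read as C). Reads of 24-33 nt were placed on it with at most 2 mismatches. Positions count from 1 at the start of the stretch, and sense is the strand as listed. The reads are written in DNA letters, 5′ to 3′, and capitals mark the 10 bases over which the sense and the antisense read of the pair are complementary, or the first base of the other reads.
sense read of the pair, positions 225 to 253: TCCATTCACAactgcgactgaaccattgt
antisense read of the pair, positions 234 to 209: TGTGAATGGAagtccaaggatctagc
most frequent sense read of at most 30 nt, positions 11 to 40: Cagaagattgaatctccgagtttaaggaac
antisense read most frequent in P/D, positions 332 to 304: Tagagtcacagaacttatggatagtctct

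The sense read of the pair, which has 2 mismatches to the stretch, was counted 3 times in SG, 214 and 97 times in L/Z 1 and 2, 73 times in P/D and 12 times in RS. Its antisense partner, with 1 mismatch, was counted 5, 61, 33, 17 and 1 times in the same samples. Of all pairs of opposite reads of at most 30 nt whose 5′ ends overlap by 10 nt with full complementarity, this pair had the largest product of read numbers in the first set. The most frequent sense read of at most 30 nt matched the stretch without a mismatch and was counted 11 times in SG, 219 and 163 times in L/Z, 50 times in P/D and 5 times in RS. The antisense read at position 332, with 1 mismatch, reached its largest count in P/D, with 42 reads against 1 in SG, 15 and 17 in L/Z and 11 in RS. None of these 4 reads occurred in any SG-T or L/Z-T sample.

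Over the whole stretch, the reads amounted to 108 RPM in SG, 198 and 290 RPM in L/Z 1 and 2, 145 RPM in P/D and 46.6 RPM in RS. Both L/Z samples thus lay above the other stages. The antisense share was 13.8% in SG (12.1% to 15.7%), 22.4% ± 1.18 (SD, n = 2) in L/Z, 27.6% in P/D (25.7% to 29.7%) and 24.1% in RS (20.8% to 27.7%). Between 67.3% and 78.1% of reads in these samples began with U (T in the lists), a known feature of primary piRNAs. The second set had 13 and 4 reads in SG-T 1 and 2 and 6 and 13 reads in L/Z-T 1 and 2, or 1.09 ± 0.172 RPM (SD, n = 2) in L/Z-T against 244 ± 65.3 RPM (SD, n = 2) in L/Z, a 224-fold difference (exact permutation test, two-sided, p = 0.333, which is as low as 2 against 2 samples can go). In the 4 samples of the second set 23.1% to 50% of these few reads began with U.

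The 5′ ends of opposite strands overlapped by 10 nt more often than by any other length from 1 to 20 nt in all 5 samples of the first set. Each pair was weighted by the product of its read numbers, and this overlap made up 17.7% of the pairs in SG, 29.4% and 33.8% in L/Z 1 and 2, 50.4% in P/D and 55.1% in RS. The share was lowest in SG and highest in RS, with both L/Z samples between SG and P/D. In SG it barely exceeded the shares at 13 nt (15.5%) and 3 nt (13.2%), whereas in P/D the next largest was 7.49% at 12 nt. The weighted pairs summed to 10668 (RS) to 384185 (L/Z 1), all from 1 stretch. In the second set no pair overlapped by 10 nt, but SG-T 1, L/Z-T 1 and L/Z-T 2 held only 6, 1 and 4 such pairs at any overlap and SG-T 2 held 0. Another listed stretch, across an RLTR1B LTR and MMERGLN, held 433 bases, of which 399 could be read. It drew 14 reads in SG, 25 and 27 in L/Z, 0 in P/D and 1 in RS, and at most 3 in a sample of the second set.

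**Figure D1:**
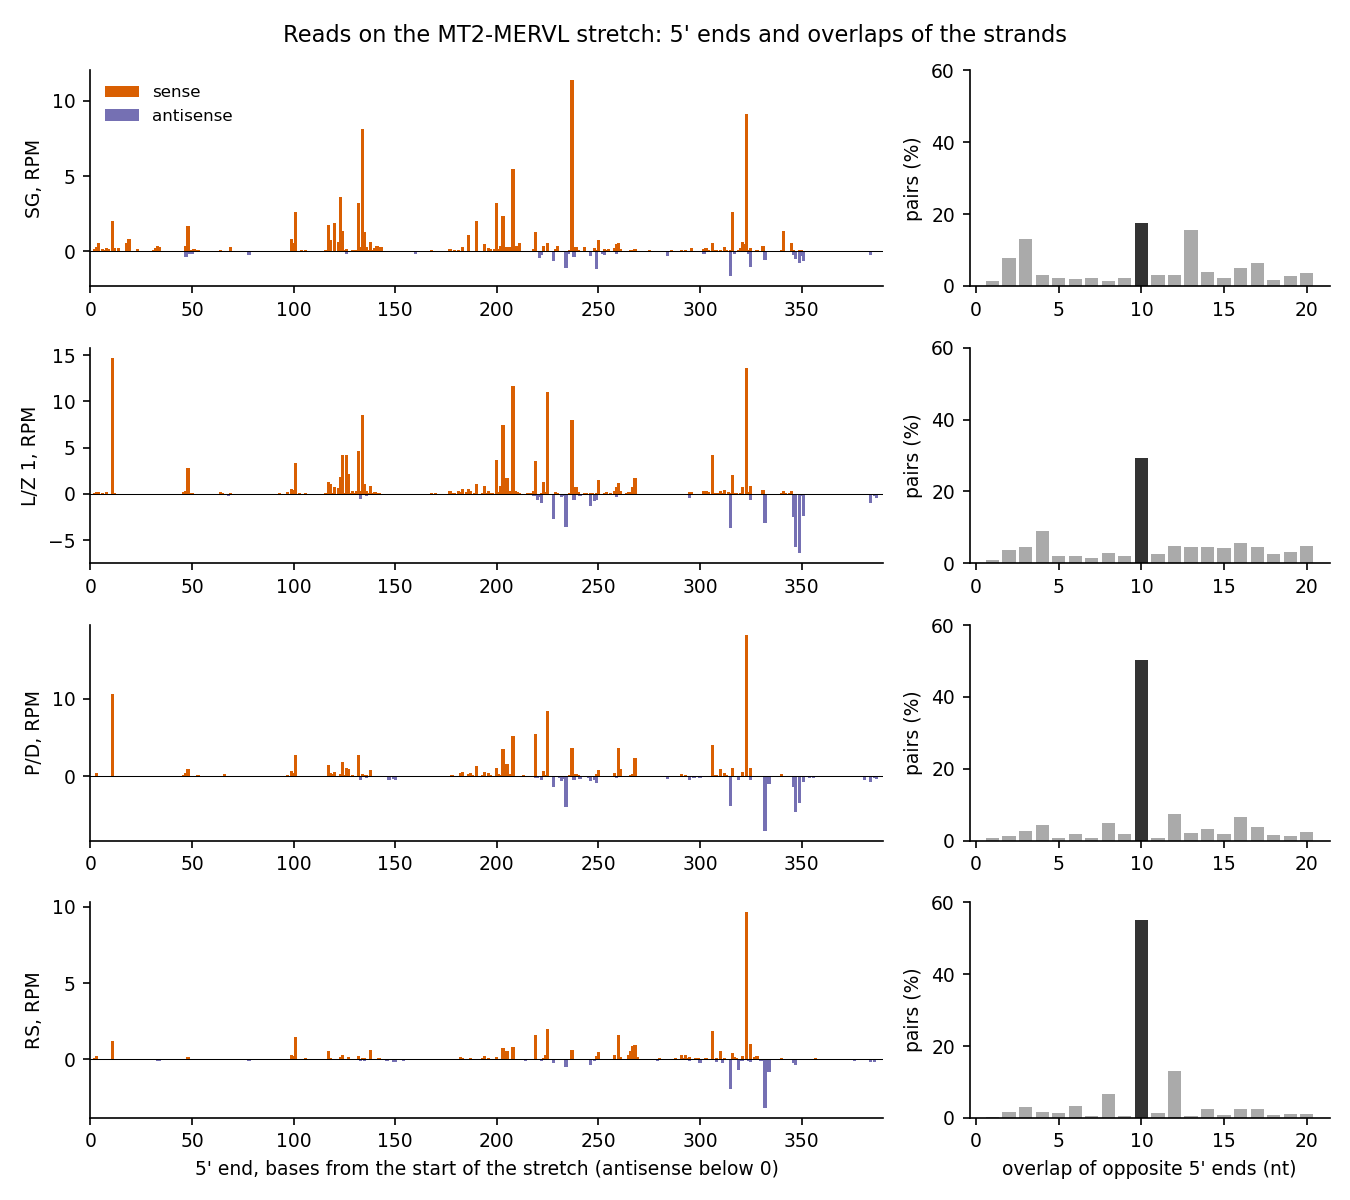
Left, RPM of 24-33 nt reads by the position of their 5′ end in the MT2-MERVL stretch (bases from its start), sense above and antisense below 0, for SG, L/Z 1, P/D and RS. Right, share of opposite-strand read pairs (percent) by the overlap of their 5′ ends (1 to 20 nt), with 10 nt in dark; this bar stands at 17.7% in SG and 55.1% in RS.

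The first question was how the piRNAs of these elements differ between stages of spermatogenesis. Summed over the 61 elements, levels were 3900 RPM in SG, 3790 and 5596 RPM in L/Z 1 and 2, 3095 RPM in P/D and 1428 RPM in RS. The SG sum lay within the range of the L/Z samples, the P/D sum was below both and the RS sum was the lowest. Of the piRNAs of all listed retrotransposons, the 61 made up 11.9% in SG, 17.2% and 14.9% in L/Z, 20.3% in P/D and 21.9% in RS. A few elements held most of the sum: the leading 5 accounted for 68.5% to 80.7% of it in the samples of the first set.

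The leading element changed with the stage. MT-int, the internal sequence of the MT MaLR elements, led in SG and L/Z with 1506 RPM in SG and 780 and 1347 RPM in L/Z, and stood at 26.2 RPM in P/D and 15.9 RPM in RS. Its level in P/D was 40.6 times lower than the L/Z mean, a wider gap than for any other of the 23 elements counted at this step. MTA_Mm, an LTR of the same family, followed the same order with 900 RPM in SG, 493 and 960 RPM in L/Z, 86.8 RPM in P/D and 26.6 RPM in RS. The SG value was above both L/Z samples for MT-int and between them for MTA_Mm, and the P/D and RS values were far below them. ORR1A1-int, the internal sequence of a second MaLR family, stood at 321 RPM in SG, 154 and 319 RPM in L/Z, 49.6 RPM in P/D and 32.7 RPM in RS. Its level was thus 4.78 times lower in P/D than in L/Z.

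The remaining MaLR LTRs varied less. MTB_Mm had 151 RPM in SG, 110 and 192 RPM in L/Z, 69.8 RPM in P/D and 27.6 RPM in RS. ORR1A0 had 75.2 RPM in SG, 58.0 and 96.7 RPM in L/Z, 41.9 RPM in P/D and 11.5 RPM in RS, and ORR1A1 54.9, 52.9, 80.6, 42.7 and 13.8 RPM. In each of these 3 LTRs the SG value lay between the L/Z samples and RS had the lowest level.

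MERVL and its MT2 LTRs had their highest levels in L/Z. MERVL stood at 268 RPM in SG, 585 and 776 RPM in L/Z, 504 RPM in P/D and 129 RPM in RS. Both L/Z samples exceeded every other stage, and the L/Z mean was 2.54 times the SG value. MT2_Mm, the LTR of MERVL, had 131 RPM in SG, 217 and 320 RPM in L/Z, 169 RPM in P/D and 55.8 RPM in RS. MT2C_Mm, a related LTR, had 63.8 RPM in SG, 252 and 299 RPM in L/Z, 236 RPM in P/D and 74.0 RPM in RS, so that its L/Z mean was 4.32 times the SG value. From P/D to RS the levels of MERVL, MT2_Mm and MT2C_Mm were 3.90, 3.03 and 3.20 times lower.

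RMER17A2, a class II LTR, led in P/D and RS. It had 46.4 RPM in SG, 621 and 431 RPM in L/Z, 1377 RPM in P/D and 668 RPM in RS, and made up 44.5% of the summed level in P/D and 46.8% in RS. The L/Z mean was 11.3 times the SG value and the P/D value 2.62 times the L/Z mean, with both L/Z samples on the same side of either stage. RMER17B2, a related LTR, had 9.81 RPM in SG, 30.03 and 33.96 RPM in L/Z, 54.6 RPM in P/D and 27.4 RPM in RS, with P/D again highest and SG lowest at far lower levels. MERVL had the next highest level in P/D.

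Class I elements included members of either pattern. MERV1_I, an internal sequence, stood at 3.80 RPM in SG, 28.7 and 17.5 RPM in L/Z, 98.8 RPM in P/D and 100 RPM in RS, and was 4.28 times higher in P/D than in L/Z. LTRIS4, an LTR, had 1.54 RPM in SG, 28.1 and 18.3 RPM in L/Z, 40.7 RPM in P/D and 25.1 RPM in RS, and its L/Z mean was 15.1 times the SG value, which rests on 20 reads. MMVL30-int, the internal sequence of VL30 elements, had 104 RPM in SG, 78.8 and 165 RPM in L/Z, 13.8 RPM in P/D and 10.3 RPM in RS. MuLV-int, related to murine leukemia viruses, had 22.2 RPM in SG, 18.9 and 43.3 RPM in L/Z, 5.15 RPM in P/D and 1.71 RPM in RS. These last 2 were 8.86 and 6.04 times lower in P/D than in L/Z.

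Among the remaining class I elements, MURVY-int was far lower in P/D and RS than in both L/Z samples. MuRRS-int, the internal sequence of murine retrovirus-related elements, had 80.4 RPM in SG, 67.8 and 128 RPM in L/Z, 61.2 RPM in P/D and 56.9 RPM in RS. LTRIS_Mm had 26.99 RPM in SG, 20.9 and 37.0 RPM in L/Z, 42.4 RPM in P/D and 24.8 RPM in RS. LTRIS2 had 4.55 RPM in SG, 9.85 and 11 RPM in L/Z, 22.0 RPM in P/D and 10.1 RPM in RS. MURVY-int, a class I element of the Y chromosome by its name, had 8.06 RPM in SG, 4.83 and 10.1 RPM in L/Z, 0.230 RPM in P/D and 0.640 RPM in RS. MMERGLN-int, named for its glutamine tRNA primer site, had 3.84 RPM in SG, 3.69 and 4.65 RPM in L/Z, 1.58 RPM in P/D and 1.83 RPM in RS, and MMERGLN_LTR at most 1.26 RPM in any sample.

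Class II internal sequences were led by MMETn-int, by its name a sequence of early transposons (ETn), kept because the name does not begin with ETn. It had 29.1 RPM in SG, 83.1 and 169 RPM in L/Z, 52.3 RPM in P/D and 38.4 RPM in RS. Its L/Z mean was 4.33 times the SG value and 2.41 times the P/D value. BGLII, a class II LTR, had 1.01 RPM in SG, 5.01 and 4.35 RPM in L/Z, 10.8 RPM in P/D and 11.04 RPM in RS. MLTR31FA_MM, from the MLTR sequences, had 4.78 RPM in SG, 10.7 and 19.7 RPM in L/Z, 7.64 RPM in P/D and 5.93 RPM in RS. The 4 elements that were not grouped had at most 2.43 RPM in any sample.

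**Figure D2:**
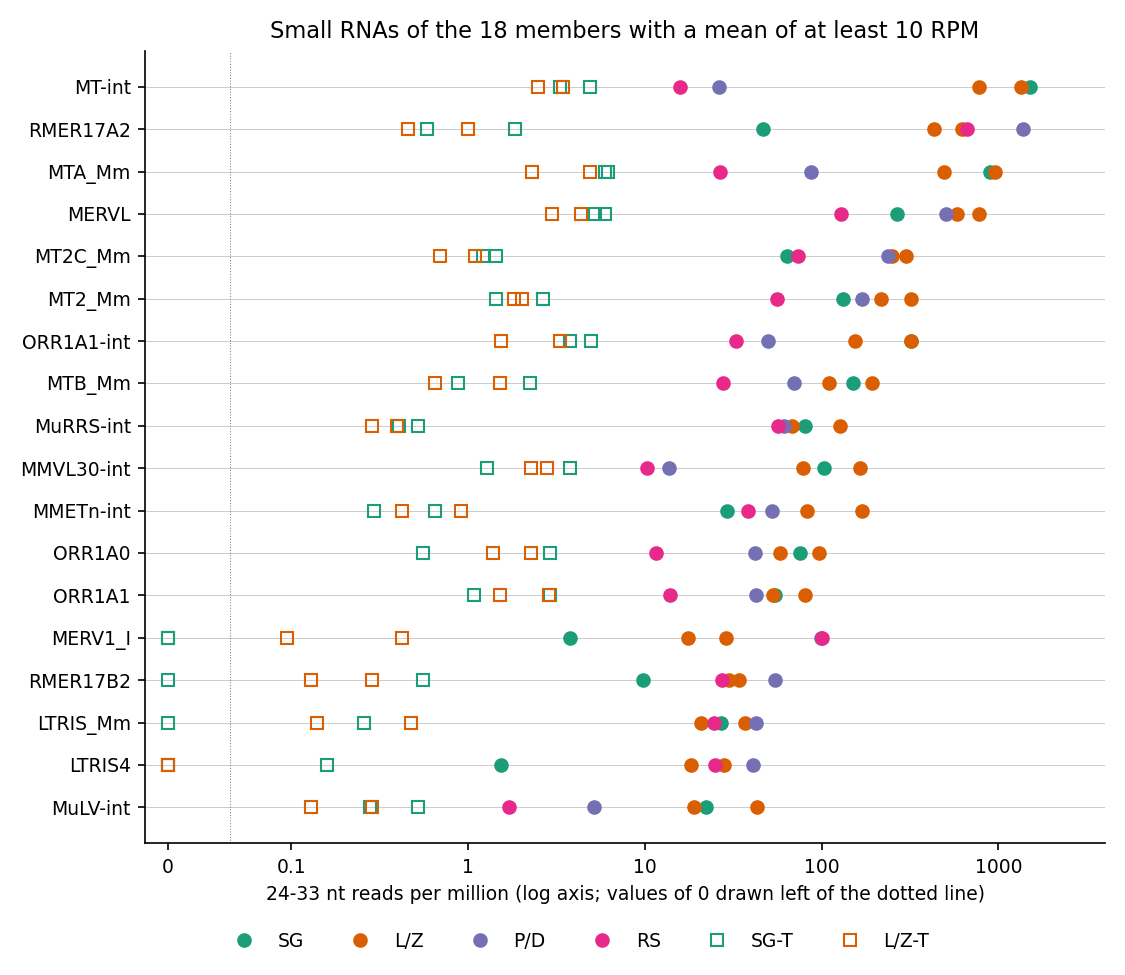
RPM of 24-33 nt reads (log axis, values of 0 drawn at the left) for the 18 elements that averaged 10 RPM or more. Filled circles are the samples of the first set and open squares those of the second, coloured by stage; for each of the 18 elements all open squares lie left of all filled circles.

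An element was counted as higher or lower between consecutive stages if it reached 10 RPM in either stage, differed more than 2-fold and had both L/Z samples on the same side, with no test. From SG to L/Z, 10 of 23 elements with enough reads were higher and 0 lower, whereas 28.7% of all 87 retrotransposons that could be counted were higher and 1.15% lower. The 10 were MERVL, MT2_Mm, MT2C_Mm, RMER17A2, RMER17B2, MMETn-int, MERV1_I, LTRIS4, LTRIS2 and MLTR31FA_MM. The median log2 ratio was 0.28 over these 23 and 0.23 over all 87.

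From L/Z to P/D, 4 of 23 elements were higher (RMER17A2, MERV1_I, LTRIS2 and BGLII) and 7 lower (MT-int, MTA_Mm, MTB_Mm, ORR1A1-int, MMVL30-int, MMETn-int and MuLV-int). Of all 94 retrotransposons counted at this step, 23.4% were higher and 42.6% lower, and the median log2 ratio was -0.64 for the 23 and -0.67 for all. From P/D to RS, 0 of 21 were higher and 9 lower, namely MERVL, both MT2 LTRs, MTA_Mm, MTB_Mm, ORR1A0, ORR1A1, RMER17A2 and LTRIS2, with 0% higher and 44.7% lower among all 85. The median log2 ratio was -0.95 for the 21 and -0.88 for all, so the shares and medians lay near those of all retrotransposons.

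The counts moved with a sample and with the scaling. Shares over all listed retrotransposons are not given under these settings, and a scaling shifts every element. The counts below therefore show only how far the calls depend on the setting. Without L/Z 1, 13 of 27 elements were lower from L/Z to P/D, and without L/Z 2, 5 of 23 were. Rescaled to the RPM of all listed retrotransposons, which shifted the median of all by 0.95 from L/Z to P/D and by 1.22 from P/D to RS on the log2 scale, 9 of 24 were higher and 5 lower from L/Z to P/D, and 5 of 26 higher and 0 lower from P/D to RS. Scaled to the 24-33 nt reads of each library, which made up 29.8% of reads in SG, 45.2% and 39.3% in L/Z, 84.5% in P/D and 83.1% in RS and shifted the median by -1.03 from L/Z to P/D, 1 of 26 was higher and 19 lower from L/Z to P/D.

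The second question was which strand the piRNAs came from. Summed over the 61 elements, the antisense share was 24.7% in SG, 31.6% ± 0.641 (SD, n = 2) in L/Z, 31.6% in P/D and 24.6% in RS. The difference of 6.90 percentage points between L/Z and SG was 3.72 points without MT-int and -0.63 points as a mean over elements with 10 RPM or more, and that of -0.06 points between P/D and L/Z was -6.81 and -3.45 points. RMER17A2, which made up 44.5% of the P/D sum, was only 10.3% antisense there and weighed the P/D share down. The share without RMER17A2 was not computed, but the lists moved in both directions. The ERVL and MaLR elements, summed, were 22.2% antisense in SG, 35.2% and 30.7% in L/Z and 50.8% in P/D. The class I internal sequences stood at 38.0%, 37.9%, 35.8% and 55.8% in the same samples. The elements not grouped were also higher in P/D, at 0.75 RPM. Class I LTRs, class II internal sequences, class II LTRs (with RMER17A2) and MLTR sequences had lower shares in P/D than in SG. Single elements differed in opposite directions. Of the 16 elements with at least 10 RPM in both SG and P/D, 10 had a higher antisense share in P/D and 6 a lower. The 10 were the 9 ERVL and MaLR elements and MMVL30-int, and the 6 were class I or class II elements. The count went by sign alone. It holds small differences with overlapping intervals, such as MT-int (8.68% in SG, 10.5% in P/D) and LTRIS_Mm (77.0% and 74.1%). No such count was made over all retrotransposons, so the numbers show nothing particular to these elements. All other listed retrotransposons, summed, were 34.2% antisense in SG, 48.2% and 43.1% in L/Z, 81.4% in P/D and 71.9% in RS. A higher antisense share in P/D than in SG was thus not particular to the 10 elements.

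Several elements had a lower antisense share in P/D than in SG. MuRRS-int was 80.1% antisense in SG (77.6% to 82.4%), 55.4% and 68.8% in L/Z 1 and 2, 5.79% in P/D (4.38% to 7.60%) and 5.88% in RS (4.38% to 7.86%), while its level stayed between 56.9 and 128 RPM. Both L/Z samples lay between SG and the later stages. MMERVK9C_I, a class II internal sequence at 5.22 to 11.3 RPM, was 85.0% antisense in SG (75.8% to 90.3%) and 82.6% and 82.7% in L/Z, against 17.1% in P/D (10.2% to 26.1%) and 14.2% in RS (8.61% to 22.3%). MMETn-int was 51.8% antisense in SG (46.8% to 56.8%), 20.1% and 38.8% in L/Z, 9.72% in P/D (7.79% to 12.2%) and 24.1% in RS (20.5% to 28.1%). LTRIS_Mus, a class I LTR, went the same way, from 58.2% in SG (50.4% to 66.0%) through 32.9% and 39.4% in L/Z to 14.8% in P/D (11.2% to 19.3%).

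Other elements had a higher antisense share in P/D than in SG. ORR1A1-int was 8.06% antisense in SG (7.27% to 8.90%), 14.0% and 9.36% in L/Z, 41.3% in P/D (37.6% to 45.1%) and 31.3% in RS (26.9% to 35.9%). MERVL was 31.2% antisense in SG (29.7% to 32.8%), 53.2% and 46.9% in L/Z, 61.2% in P/D (60.05% to 62.4%) and 52.2% in RS (49.8% to 54.6%). MERV1_I was 66.8% antisense in SG (54.2% to 79.2%, from 50 reads) and 90.2% to 96.4% in every later sample. BGLII_Mus, a class II LTR, was 0% antisense in SG (up to 19.4%, from 16 reads), 53.1% and 44.8% in L/Z, 88.1% in P/D and 84.2% in RS.

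Some elements, among them those named next, gave mostly sense piRNAs in all 5 samples. MT-int was 7.30% to 10.5% antisense in the 5 samples although its level differed widely between them. MLTR31FA_MM had 0% antisense RPM in 4 samples and 0.187% in L/Z 1, and LTRIS4 had 24.03% in SG (11.2% to 46.9%, from 20 reads) and at most 1.59% from L/Z onward. RMER17A2, which held most class II LTR reads, was also mostly sense throughout, with an antisense share of 26.5% in SG and 5.19% in RS. By contrast, RMER17B2 was 94.3% antisense in SG and 47.5% in RS.

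**Figure D3:**
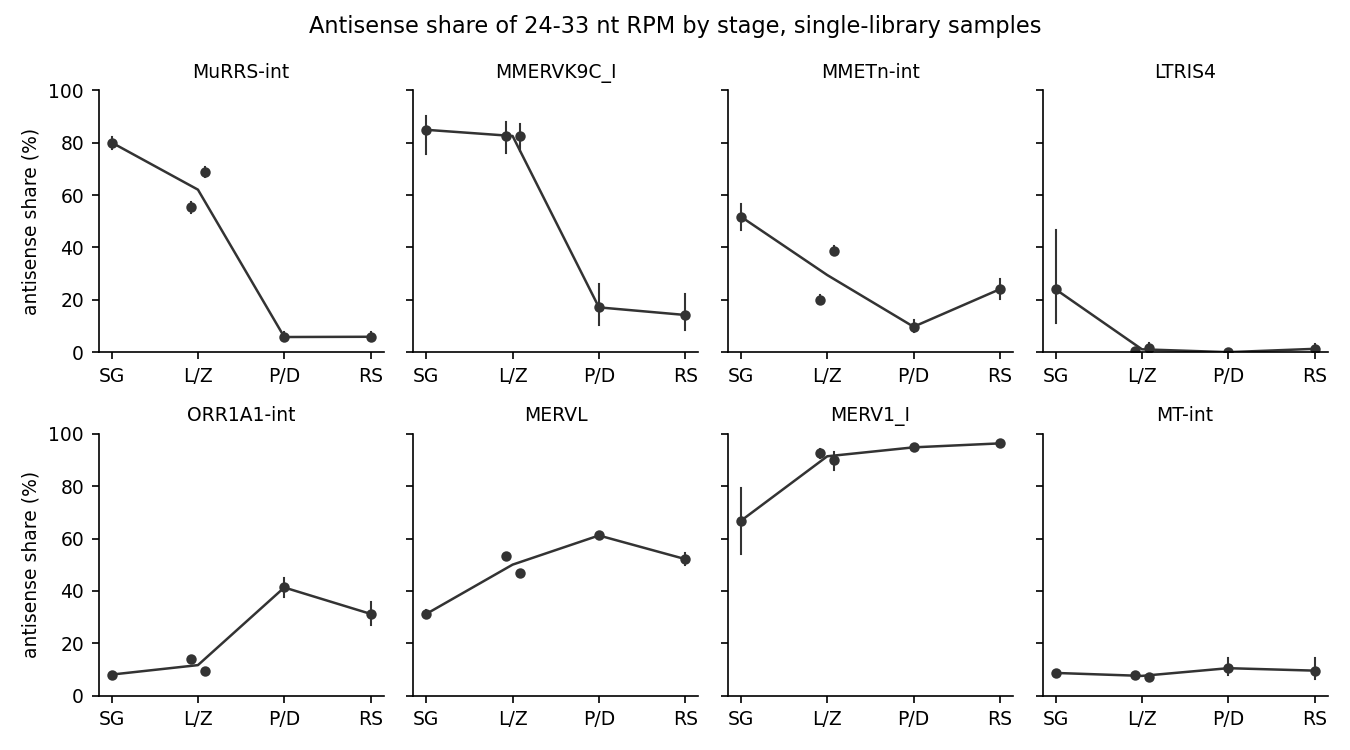
Antisense share (percent) of 24-33 nt RPM by stage in the first set for 8 elements. Points are samples, bars are 95% Wilson intervals and lines join stage means; MuRRS-int and MMERVK9C_I drop to 5.79% and 17.1% in P/D, ORR1A1-int and MERVL go up, and MT-int stays between 7.30% and 10.5%.

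The length of the piRNAs moved with the stage in nearly all of these elements. Of the summed 24-33 nt RPM, reads of 28-33 nt made up 41.3% in SG, 45.6% and 44.4% in L/Z, 74.4% in P/D and 81.3% in RS. All other listed retrotransposons, summed, had close values of 43.2% in SG, 41.9% and 44.8% in L/Z, 75.2% in P/D and 82.8% in RS. The change in length was thus not particular to the 61 elements. The median over elements with at least 10 RPM was 41.8% in SG (18 elements), 42.6% and 40.4% in L/Z (21 and 26), 73.9% in P/D (21) and 75.3% in RS (20). Both L/Z values thus lay close to SG and far from P/D. The range in P/D was 44.1% (LTRIS4) to 86.5% (LTRIS_Mm), and in RS 55.5% (MT2C_Mm) to 89.1% (MERV1_I).

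RMER17A2 had long piRNAs already in SG, with 62.3% (58.4% to 66.1%) of its RPM in this class, and 88.7% (88.0% to 89.4%) in RS. MuLV-int stayed short in P/D, at 32.8% (22.4% to 44.2%), but rested on 68 reads. MT2C_Mm had the smallest difference among elements with at least 10 RPM in SG and RS, with 43.5% in SG (40.3% to 46.9%) and 55.5% in RS (52.3% to 58.7%).

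**Figure D4:**
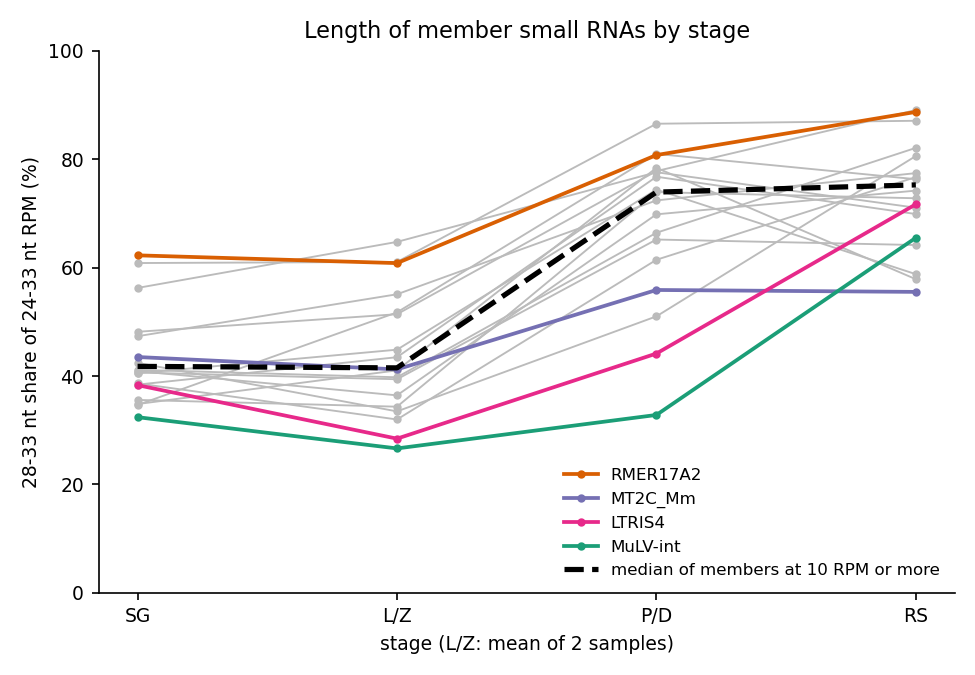
Share (percent) of 24-33 nt RPM in reads of 28-33 nt by stage, first set, L/Z as the mean of 2 samples, for the same 18 elements as in the plot of their levels; 4 are coloured and the dashed line is the median over elements with at least 10 RPM. The median goes from 41.8% in SG to 73.9% in P/D, whereas MuLV-int is still at 32.8% in P/D.

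The third question was how the L/Z samples of the second set (L/Z-T) compare with those of the first. The summed level was 42.8 ± 10.5 RPM (SD, n = 2) in L/Z-T and 4693 ± 1278 RPM (SD, n = 2) in L/Z, a 110-fold difference with no overlap (exact permutation test, two-sided, p = 0.333). The other listed LTR elements, mostly IAP, ERVB and RLTR sequences, were 3.46-fold lower in L/Z-T, and all other retrotransposons together 1.101-fold lower. Of the RPM of all listed retrotransposons, the 61 elements therefore made up 0.188% ± 0.0520 (SD, n = 2) in L/Z-T and 16.004% ± 1.63 (SD, n = 2) in L/Z, again without overlap (exact permutation test, p = 0.333).

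In limma fits of log2(RPM + 1) over the 136 retrotransposons that averaged 1 RPM or more in these 4 samples, 35 of the 61 elements could be tested, and 32 were lower and 0 higher in L/Z-T at a Benjamini-Hochberg adjusted p under 0.05 (32 also at an unadjusted p under 0.05). Of all 136, 90.4% were lower and 2.21% higher, so the share of 32 in 35 was close to the background. The median log2 change of the 35 was -4.23, also with the 2 elements without any L/Z-T read set at 3 reads over the group, and that of all 136 was -2.87. The largest adjusted p among the 32 was 1.34e-05, and 19 of the 32 had under 10 reads in both L/Z-T samples together. An element that passed the filter through its L/Z level alone had to be lower in L/Z-T, so the count supports nothing by itself.

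The 9 ERVL and MaLR elements were all lower, with a median log2 change of -6.51. Among them, MT2C_Mm averaged 0.90 RPM in L/Z-T, passed the filter through L/Z alone and had to be lower. MT-int had 3.43 and 2.51 RPM in L/Z-T 1 and 2, 358-fold below the L/Z mean (log2 change -8.02 ± 0.59 SE). MERVL had 4.38 and 2.97 RPM (-7.19), MTA_Mm 4.88 and 2.32 RPM (-7.29), and MT2_Mm 2.01 and 1.82 RPM (-6.51). The smallest change in this group was that of ORR1A1, which had 2.89 and 1.51 RPM and was 30.3-fold lower.

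Class II LTRs included the largest change of all 136, that of RMER17A2, with 1.01 and 0.460 RPM in L/Z-T and a log2 change of -8.24 ± 0.61 (SE). RMER17B2, BGLII, BGLII_Mus and RMER17A were also lower, as were the internal sequences MMETn-int (188-fold), MMERVK9E_I, MMERVK9C_I and MMERVK10D3_I. In class I, 6 of 7 internal sequences were lower: MuRRS-int (288-fold), MuLV-int (150-fold), MMVL30-int (48.2-fold), MERV1_I, MURVY-int and MuRRS4-int. All 6 tested class I LTRs (LTRIS_Mm, LTRIS_Mus, LTRIS2, LTRIS3, LTRIS4 and MURVY-LTR) were lower, and LTRIS4, which had no read in either L/Z-T sample, was at least 131-fold lower, set against 3 reads over the group. MLTR31F_MM and MLTR31FA_MM were lower as well. Apart from MMVL30-int, at 2.53 RPM, the elements named in this paragraph averaged under 1 RPM in L/Z-T. They passed the filter through L/Z alone and had to be lower, so these tallies support nothing by themselves.

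The 3 tested elements that were not called were MLTR25A (log2 change 0.32 ± 0.57 SE, adjusted p = 0.58 by limma), MMERGLN-int (-0.56 ± 0.47 SE, adjusted p = 0.24) and IMPB_01 (0.37 ± 0.28 SE, adjusted p = 0.182). MLTR25A had 6.75 and 10.1 RPM in L/Z-T against 5.53 and 7.49 RPM in L/Z, and these ranges overlap. MMERGLN-int had 3.93 and 1.48 RPM against 3.69 and 4.65 RPM. Without L/Z-T 2, IMPB_01 was called higher by limma (log2 change 0.98, adjusted p = 0.0166).

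The gap between the sets depended on the length of the reads. At 24-27 nt the 61 elements together were 89.6-fold and at 28-33 nt 151-fold lower in L/Z-T than in L/Z, but at 19-23 nt only 3.23-fold, with 526 ± 27.2 RPM against 1702 ± 136 RPM (SD, n = 2 each). At 11-18 nt they had 15372 ± 1740 RPM in L/Z-T and 14126 ± 360 RPM in L/Z (SD, n = 2 each), and the samples overlapped. Short reads match many consensus sequences, and their RPM is not a measure of piRNAs. The antisense share of the 24-33 nt RPM was 37.4% ± 5.47 (SD, n = 2) in L/Z-T and 31.6% ± 0.641 (SD, n = 2) in L/Z, and the share of 28-33 nt reads 32.6% ± 0.120 against 45.0% ± 0.880 (SD, n = 2 each; exact permutation test, p = 0.333).

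**Figure D5:**
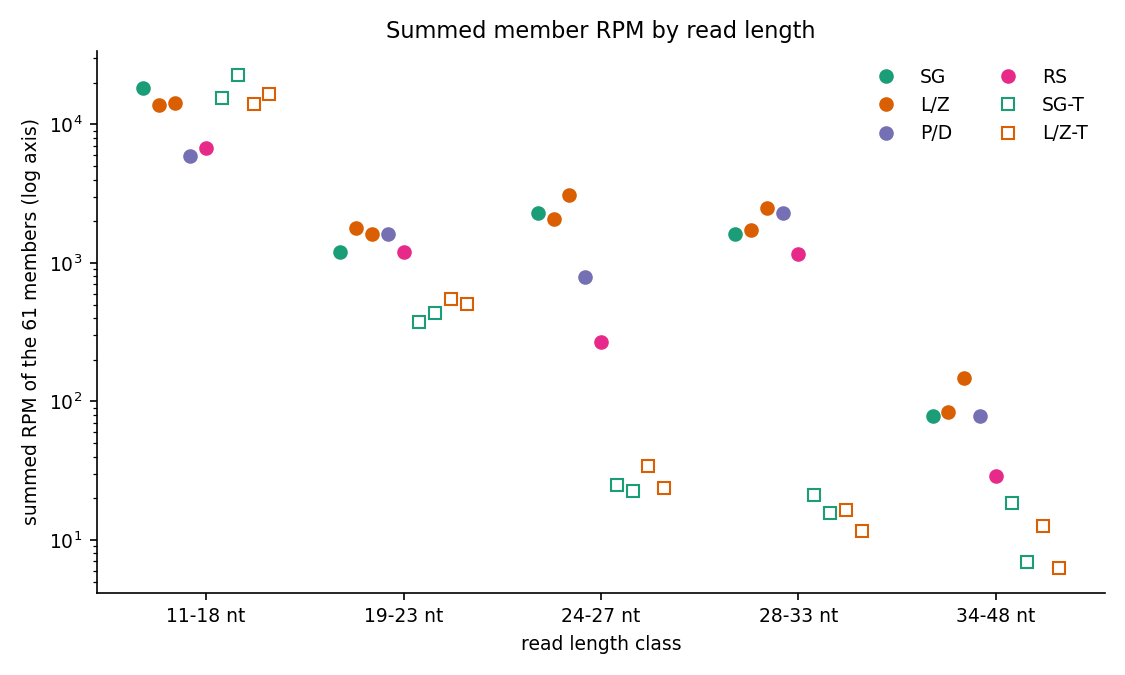
Summed RPM (log axis) of the 61 elements by read length class in the 9 samples, filled circles for the first set and open squares for the second. At 11-18 nt the L/Z and L/Z-T samples overlap, and at 24-27 and 28-33 nt all samples of the second set lie below all of the first.

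The last comparison was between L/Z-T and SG-T, within the second set. The summed level was 42.8 ± 10.5 RPM in L/Z-T and 42.2 ± 5.28 RPM in SG-T (SD, n = 2 each), with overlapping samples (exact permutation test, two-sided, p = 1.0), whereas the other LTR elements were higher in L/Z-T in 4 of 4 sample pairs, at 3565 ± 789 against 540 ± 286 RPM (SD, n = 2 each; p = 0.333). As a share of the RPM of all listed retrotransposons, the 61 elements made up 0.188% ± 0.0520 (SD, n = 2) in L/Z-T and 1.30% ± 0.104 (SD, n = 2) in SG-T, without overlap (exact permutation test, p = 0.333).

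By limma, 2 of the 13 elements tested rose in L/Z-T and 0 fell, while 36.2% of all 58 retrotransposons tested rose and 0% fell. An unadjusted p under 0.05 was reached by the same number, 2 of the 13, and by 28 of the 58. The median log2 change was -0.28 for the 13 and 0.80 for all 58. MLTR25A had 1.49 and 1.40 RPM in SG-T 1 and 2 and 6.75 and 10.1 RPM in L/Z-T 1 and 2, a log2 change of 1.92 ± 0.33 (SE, adjusted p = 0.000734 by limma), higher in 4 of 4 sample pairs. The 4 L/Z-T libraries had 4.95 to 11.28 RPM and the 4 SG-T libraries 0.290 to 2.5 RPM. Its values rest on 16.1 reads in SG-T and 164 in L/Z-T (reads with several best matches are divided), and only 1.78% and 4.46% of its RPM in L/Z-T 1 and 2 came from reads of 28-33 nt.

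MLTR25A had many reads shorter than piRNAs. At 19-23 nt it had 149 and 205 RPM in L/Z-T, 33.8 and 56.9 RPM in SG-T, 39.4 and 51.0 RPM in L/Z and 67.6 RPM in SG, mostly antisense (146 and 197 RPM in L/Z-T). In each of these samples its RPM at 19-23 nt exceeded that at 24-33 nt, as was also the case for MMERGLN-int and IMPB_01. Of its 24-33 nt RPM, 36.3% and 35.9% was antisense in L/Z-T 1 and 2.

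MMERGLN-int had 0.405 and 0 RPM in SG-T and 3.93 and 1.48 RPM in L/Z-T, a log2 change of 1.56 ± 0.41 (SE, adjusted p = 0.00991 by limma), from 5 and 40.5 reads. It passed the filter through its L/Z-T level alone, so it had to be higher there. Of its RPM, 2.42% and 14.2% was antisense in L/Z-T against 23.6% and 29.5% in L/Z. The calls depend on single samples: without SG-T 2, whose 1810805 reads are the fewest, neither element was called by limma (adjusted p = 0.05 for MLTR25A, not below the threshold, and 0.241 for MMERGLN-int). MMERGLN-int was also lost without SG-T 1 (adjusted p = 0.125) and did not pass the filter without L/Z-T 1.

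The 9 ERVL and MaLR elements did not pass the test (smallest adjusted p = 0.144 by limma, ORR1A1-int). MERVL had 5.26 and 6 RPM in SG-T and 4.38 and 2.97 RPM in L/Z-T (log2 change -0.52 ± 0.33 SE), and MTA_Mm had 6.23 and 5.97 against 4.88 and 2.32 RPM (-0.68 ± 0.36 SE). MT2_Mm (-0.04 ± 0.34 SE) and MMVL30-int (0.09 ± 0.39 SE) had overlapping samples. Rescaling to the RPM of all listed retrotransposons shifted the log2 change of all by a median of -2.43. After it, 0 of 19 elements were higher and 14 lower in L/Z-T, MERVL (log2 change -2.95) and MTA_Mm (-3.11) among them. The change of MLTR25A was then -0.26. No share over all retrotransposons is given for this setting, so the 14 are not shown to be particular to these elements. Apart from MLTR25A in L/Z-T, each of the 13 elements rests on at most 69 reads over the samples of a stage.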

How the data were processed

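Small RNAs of 13 libraries, from 9 samples, were measured. Per the labels, RNA was extracted with Isogene, libraries were made with the TruSeq Small RNA kit and adapters were removed with cutadapt (version not given in the sources used here). According to the study's methods, the authors removed other non-coding RNA, matched reads to retrotransposon consensus sequences with SeqMap, allowed 2 mismatches and divided a read among its best matches. The deposited summary tables hold the resulting RPM values by strand and length class. The authors also deposited, for each library, a list of read sequences with their read counts, which gave the depth and the reads on the listed stretches.

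Technical runs were averaged in RPM and summed in reads. L/Z-T was compared with L/Z and with SG-T by limma 3.58.1 in R 4.3.3 on log2(RPM + 1), after a filter of 1 RPM on the mean, with a mean-variance trend and Benjamini-Hochberg adjustment over all retrotransposons tested. Fold changes on this scale understate those of low values. Summed values were compared by two-sided exact permutation tests, whose smallest p is 0.333. Scripts were tested on simulated data. Alternatives were the pseudocount, the filter, rescaling, the replicate block, each technical run alone and leaving out each sample. A crossed block and scaling to 24-33 nt reads were added after seeing the data.

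The elements, their lists and the tests were chosen with earlier results of these data known. Named are the elements averaging 10 RPM or more, those called by limma, the 8 with the largest mean in each direction of each step, and MERVL, MT2_Mm, MMERGLN-int, MMERGLN_LTR, MuLV-int, MMVL30-int and MURVY-int. IMPB_01 was named after its values were seen.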

Additional observations from a re-analysis of the deposited data

Results flagged for a closer look

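For 3 elements, the L/Z samples lay on opposite sides of the SG samples in the 2 sets, in every pair of samples after technical runs were averaged. The difference between the sets was not tested, since the first set has a single SG sample. MERVL had a log2 change from SG to L/Z of -0.52 in the second set and 1.34 in the first. The change in the second set was not called (adjusted p = 0.217 by limma). Its single runs overlapped there, with 1.59 to 8.93 RPM in SG-T and 2.13 to 6.62 RPM in L/Z-T. MT2C_Mm, an LTR related to that of MERVL, had -0.30 in the second set, where each sample had at most 13 reads, and 2.09 in the first. MLTR25A went the other way, with 1.92 in the second set and -0.43 in the first. Its change in the second set turned negative when rescaled to all listed retrotransposons, so this contrast depends on the scaling. Set, depth, run and genotype tag cannot be told apart in these differences.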

How the results depend on the processing

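Limma called 2 elements in L/Z-T against SG-T, and 0 to 2 when a sample was left out, 0 of them without SG-T 2. Each technical run alone gave 1. Rescaled to all listed retrotransposons, 0 were higher and 14 lower, with no share over all retrotransposons given beside them. The change of MLTR25A was then -0.26, and the log2 ratio of the summed level was -2.79 in place of 0.02. That ratio was -0.017 in the second technical run alone, -0.10 without SG-T 2 and between -0.25 and 0.25 as each sample was left out. With the replicate number as a block, 2 elements were called in this comparison and 32 in L/Z-T against L/Z, so the block changed no call. Deviations of same-numbered samples correlated at 0.109 and -0.194 over 2 pairs each, so the numbers are not shown to pair the samples, and a crossed block, added after seeing the data, also gave 32. In L/Z-T against L/Z, the 32 calls ranged from 29 to 33 as each sample was left out, and 45 of 60 were lower without the filter. A fit that leaves out a sample assumes that the lone sample varies like the other group.

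Between stages, 7 elements were lower from L/Z to P/D, 12 with a minimum of 3 RPM, and 5 to 13 as an L/Z sample was left out, the 13 being without L/Z 1. From SG to L/Z 0 to 1 were lower, and scaling to 24-33 nt reads shifted the median log2 ratio of all by -0.47. Rescaled to all listed retrotransposons, 9 were higher from L/Z to P/D, and 5 higher and 0 lower from P/D to RS. Scaled to 24-33 nt reads, 1 was higher and 19 lower from L/Z to P/D. No share over all listed retrotransposons is given under these settings. The summed antisense share was 6.90 percentage points higher in L/Z than in SG, but 3.72 without MT-int and -0.63 as a mean over elements with 10 RPM or more. From L/Z to P/D its difference of -0.06 points became -6.81 and -3.45 in the same order, and -0.51 to 0.39 as an L/Z sample was left out. Leaving out RMER17A2, the leading and mostly sense element in P/D, was not tried. The cause of these shifts was not tested. Depth limits the second set, where 21 to 39 of the 61 elements had no read in a sample.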
